A study of Mus musculus with 6 samples.

Results

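The genes of megakaryocytes and platelets were followed in the spleens of garlic-fed and control mice. The list held 9 genes, Pf4, Ppbp, Itga2b, Gp1ba, Gp5, Gp6, Gp9, Vwf and Treml1, and a gene was taken when the array annotation gave it a probe set of its own, a group of short oligonucleotides that reads 1 mRNA. Of the 9 genes, 8 had such a probe set, with 1 probe set for each, and Gp1ba was not analysed here. The array held 18193 genes with a probe set of 1 gene name, and 12262 of them, including all 8, were bright enough to be tested. All animals were male B6 mice, C57BL/6J by the labels, with a starting age of 8 weeks. The 3 control mice ate a diet with 4% cellulose. The 3 garlic-fed mice ate that diet with 4% lyophilized raw garlic powder in place of the cellulose, so the diets differed in cellulose too. Whole spleens were taken at week 15, and the RNA of each was hybridized to 1 Affymetrix array. The comparison asked whether the garlic-supplemented diet was accompanied by another level of megakaryocyte and platelet mRNAs in this organ.

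Megakaryocytes are large, polyploid blood cells that shed platelets, the small cell fragments that close a damaged vessel. In mice, unlike in adult humans, the red pulp of the spleen holds megakaryocytes in health, and the organ also stores circulating platelets, which carry mRNA passed on by the megakaryocyte. Megakaryocytes and red blood cell precursors arise from a common progenitor and share transcription factors such as Gata1, which binds GATA motifs, often beside ETS motifs at megakaryocyte genes. A platelet sticks to a torn vessel through von Willebrand factor and the GPIb-IX-V complex, is activated by collagen, joins other platelets through the integrin αIIbβ3 and empties its granules.

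The promoters of Pf4, Ppbp, Gp5 and Gfi1b are shown for the motifs that the shared transcription factors bind. Pf4 and Ppbp are the chemokine genes of the platelet and lie side by side on chromosome 5, Gp5 held the most GATA matches among the measured genes of the list, and Gfi1b is a transcription factor gene that was higher in the garlic-fed mice. Each sequence, from RefSeq on build GRCm38.p6, runs 5′ to 3′ in the direction of the gene from 250 bases before to 50 bases after the annotated start. Capitals mark 2 kinds of word searched on both strands. A GATA word reads AGATAA, in its second form AGATAG, with a different first letter TGATAA, and in the remaining form TGATAG. An ETS word reads CCGGAA, or in its other form CAGGAA. No marked words overlap in these 4 sequences.
Pf4 (chr5:90772185-90772484, plus strand): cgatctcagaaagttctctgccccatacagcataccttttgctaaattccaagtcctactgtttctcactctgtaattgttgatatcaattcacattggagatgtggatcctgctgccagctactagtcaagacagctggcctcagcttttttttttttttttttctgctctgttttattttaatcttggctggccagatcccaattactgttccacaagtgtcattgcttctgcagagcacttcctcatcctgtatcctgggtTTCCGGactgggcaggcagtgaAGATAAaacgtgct
Ppbp (chr5:90768268-90768567, plus strand): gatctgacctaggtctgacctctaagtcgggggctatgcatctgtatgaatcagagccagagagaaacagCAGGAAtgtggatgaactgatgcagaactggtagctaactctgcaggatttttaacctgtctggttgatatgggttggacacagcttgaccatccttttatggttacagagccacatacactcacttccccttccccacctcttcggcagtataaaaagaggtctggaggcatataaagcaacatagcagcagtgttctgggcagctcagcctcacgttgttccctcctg
Gp5 (chr16:30310732-30311031, minus strand): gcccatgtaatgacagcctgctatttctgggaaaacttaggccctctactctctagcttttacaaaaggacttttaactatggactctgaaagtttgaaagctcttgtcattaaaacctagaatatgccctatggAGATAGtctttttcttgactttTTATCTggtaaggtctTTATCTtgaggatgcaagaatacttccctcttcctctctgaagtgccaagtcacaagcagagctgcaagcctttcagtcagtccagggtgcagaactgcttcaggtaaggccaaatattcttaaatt
Gfi1b (chr2:28621933-28622232, minus strand): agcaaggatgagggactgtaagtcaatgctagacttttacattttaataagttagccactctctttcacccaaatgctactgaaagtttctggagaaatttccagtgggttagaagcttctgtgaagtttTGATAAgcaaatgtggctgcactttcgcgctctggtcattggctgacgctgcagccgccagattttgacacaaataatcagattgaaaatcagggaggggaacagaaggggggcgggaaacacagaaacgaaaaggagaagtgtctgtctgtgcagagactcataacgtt
In Pf4, an ETS and a GATA word stand close together, both after the annotated start. Ppbp held 1 ETS word and no GATA word, Gp5 held 3 GATA words, and Gfi1b held 1. Of the 9 listed genes, 8 had a promoter in the table and Vwf did not. A GATA word stood in 4 of these 8 promoters (Pf4, Gp1ba, Gp5 and Gp6), an ETS word in 5 (Pf4, Ppbp, Itga2b, Gp1ba and Treml1) and both in 2 (Pf4 and Gp1ba), while that of Gp9 held neither. Among all 32851 promoters of the table, 29.8% held a GATA word, 41.4% an ETS word and 11.4% both. Such matches describe the letters of the windows and show no binding.

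Megakaryocyte and platelet mRNAs did not pass the test between the diets in any of the 8 genes measured. Levels are MAS5 signals, the brightness of a probe set on a linear scale, and differences are garlic minus control on the log2 scale, tested with limma and adjusted over 27022 probe sets by the Benjamini-Hochberg method. At an adjusted p under 0.05, 0 of 8 genes were called, beside 0.351% of all 12262 genes tested, so that a call among 8 genes was unlikely from the start. At an unadjusted p under 0.05 it was also 0 of 8, beside 13.1% of all genes. The groups were without overlap in 0 of 8, beside 19.8% of all genes. With only 8 genes, these counts of 0 do not set the list apart from all genes. The 8 log2 fold changes lay between -0.46 for Gp6 and 0.24 for Treml1, with 4 above and 4 below 0. Their median was -0.0098, beside -0.028 over all genes tested.

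Pf4 and Ppbp encode chemokines, platelet factor 4 and platelet basic protein, that are kept in the alpha granules of platelets. The signal of Pf4 was 2265, 3258 and 3886 in control mice 1, 2 and 3, against 3856, 3216 and 2789 in garlic-fed mice 1, 2 and 3. The 3 garlic-fed mice thus lay inside the range of the controls, with control mouse 1 the lowest and control mouse 3 the highest. The means were 3136 ± 818 (SD, n = 3) and 3287 ± 537 (SD, n = 3), and the log2 fold change was 0.09, with a standard error of 0.19 and an adjusted p of 0.907 from limma. For Ppbp the signals were 4052, 6225 and 5893 in the 3 controls, against 5710, 5293 and 5286 in garlic-fed mice. Control mouse 1 was again the lowest of the 6, and all garlic-fed mice lay between it and the other controls. The log2 fold change of Ppbp was 0.035 (standard error 0.14, adjusted p = 0.957 from limma), with a 95% interval from -0.29 to 0.36, or garlic/control from 0.82 to 1.28.

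Itga2b encodes integrin αIIb, the chain that joins integrin β3 to form the fibrinogen receptor of platelets. Its signal was 781.2, 997.3 and 789 in the 3 controls, against 925.2, 856.6 and 705.3 in garlic-fed mice. Garlic-fed mouse 3 was the lowest and control mouse 2 the highest, and the groups overlapped. The log2 fold change was -0.046 (standard error 0.15, adjusted p = 0.944 from limma). Itgb3, the gene of the β3 chain, which was named after its values were seen, had signals of 488.7, 625.1 and 532.6 in the 3 controls, against 644.3, 717.2 and 407.5 in garlic-fed mice. These groups overlapped as well, with a log2 fold change of 0.07 and an adjusted p of 0.94 from limma.

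The GPIb-IX-V complex holds the platelet to von Willebrand factor, and of its genes Gp5, Gp9 and Gp1bb were measured. The signal of Gp5 was 396.5, 582.6 and 575 in the 3 controls, against 562.3, 431.8 and 416.8 in garlic-fed mice. Control mouse 1 was the lowest, next to garlic-fed mice 3 and 2, and the other 3 mice stood together above them. The log2 fold change of Gp5 was -0.13 (standard error 0.19, adjusted p = 0.858 from limma). Gp9 had signals of 348.5, 478.6 and 694.5 in the 3 controls, against 646.4, 351 and 406.5 in garlic-fed mice. The lowest and the highest value were both from control mice, and the log2 fold change was -0.11 (standard error 0.27, adjusted p = 0.926 from limma). Gp1bb, which is not on the list and was named after its values were seen, had a log2 fold change of -0.024 and an adjusted p of 0.983 from limma. Over the 6 mice, the Pearson r of its log2 signal with the mean profile of the list was 0.823, and that of Itgb3 was 0.353.

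Vwf encodes von Willebrand factor, the adhesion protein of alpha granules that endothelial cells also make, so both cell types can add to its signal in a whole spleen. The 3 control mice were close together at 614.1, 678.1 and 661.3, and the garlic-fed mice were spread around them at 802.6, 719.2 and 503.7. Garlic-fed mice held both the highest and the lowest of the 6 values. The log2 fold change was 0.026 (standard error 0.17, adjusted p = 0.974 from limma). Of 10 endothelial markers tested, such as Cdh5 and Pecam1, 0 passed the adjusted threshold and 0 had an unadjusted p under 0.05, and their median log2 fold change was -0.028.

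Gp6 encodes the collagen receptor glycoprotein VI and had the lowest fold change of the list. Its signal was 140.7, 128.9 and 174.5 in the 3 controls, against 120.8, 77.5 and 130.6 in garlic-fed mice. Of the garlic-fed mice only mouse 3, at 130.6, reached the range of the controls, and it lay just above control mouse 2. The means were 148 ± 23.7 (SD, n = 3) and 110 ± 28.3 (SD, n = 3), and the log2 fold change was -0.46 (standard error 0.27, unadjusted p = 0.118, adjusted p = 0.589 from limma). Without garlic-fed mouse 2, the lowest, the difference was -0.23. Fcer1g, the signalling chain that the collagen receptor needs, had a log2 fold change of 0.12 and an adjusted p of 0.768 from limma. Its control mean was 4922, far above that of Gp6, and the part of other spleen cells in it was not tested.

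Treml1 encodes a receptor of alpha granules that reaches the platelet surface on activation, and it had the highest fold change of the list. The controls were spread over 298.9, 388 and 578.8, while the garlic-fed mice were close together at 491.1, 486.6 and 461. All 3 garlic-fed mice thus lay between control mice 2 and 3. The means were 422 ± 143 (SD, n = 3) and 480 ± 16.2 (SD, n = 3), and the log2 fold change was 0.24 (standard error 0.21, adjusted p = 0.755 from limma). It was 0.017 without control mouse 1 and 0.49 without control mouse 3, with adjusted p of 0.992 and 0.407 from limma.

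**Figure D1:**
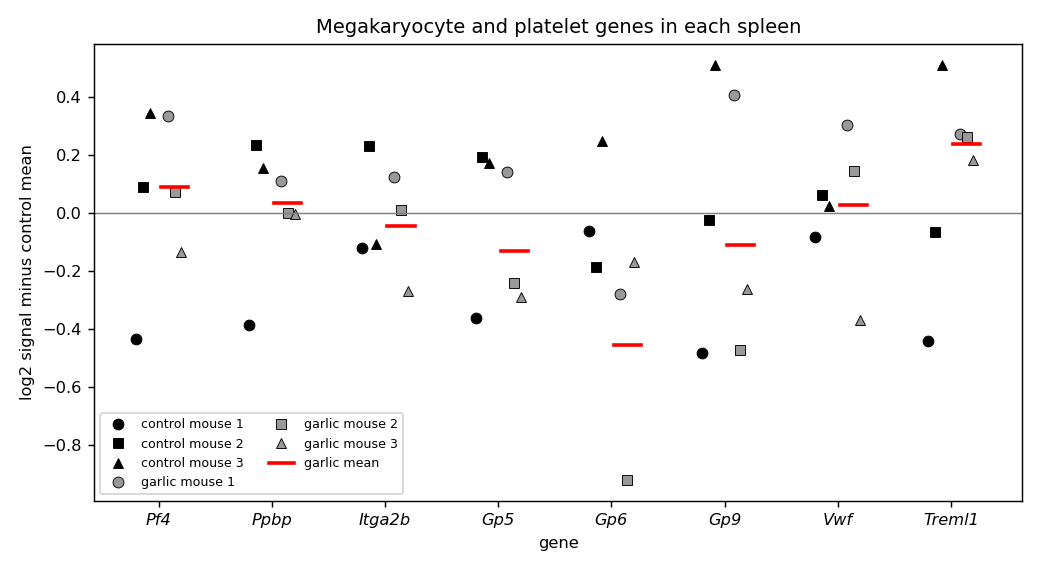
Log2 MAS5 signal of the 8 measured genes in each mouse minus the mean of the 3 control mice of that gene (y axis), with control mice in black, garlic-fed mice in gray and a red bar at the garlic mean. The groups overlap in all 8 genes, control mouse 1 is below the control mean in all 8, and the garlic means run from -0.46 for Gp6 to 0.24 for Treml1.

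A missed threshold does not show that a gene was unchanged, and the intervals of the main limma fit give the sizes that this fit still allows. The fit moderates the variance of each gene. Intervals from a gene's own variance alone, not given here, would be wider for Gp9 and Treml1. For 7 of the 8 genes the 95% interval of the main fit stayed within a fold change of 1.8 in either direction, a log2 size of 0.85. The exception was Gp6, whose interval ran from -1.05 to 0.14, so that garlic/control ratios from 0.482 to 1.1 were compatible with its values. The interval of Treml1 reached 0.72 on the high side and that of Gp9 reached -0.72 on the low side. In bulk RNA of a whole spleen, fewer megakaryocytes or platelets and less RNA in each of them cannot be told apart.

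The 8 genes varied between mice of one diet. Control mouse 1 had the lowest signal of the 6 mice in 5 of the 8 genes and the lowest of its group in 7, and it lay below the control mean in all 8, by a median of 0.38 on the log2 scale. Control mouse 3 was the highest of the 6 in 4 genes, control mouse 2 in 3 and garlic-fed mouse 1 in 1. Among garlic-fed mice, mouse 3 had the lowest signal of its group in 6 genes and a median of -0.22 against the control mean, whereas mouse 1 had the highest of its group in 7 and a median of 0.21. The median of garlic-fed mouse 2 was 0.0048.

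Control mouse 1 also stood apart by its pancreas mRNAs, the pancreas being an organ that lies against the spleen. The summed signal of 11 pancreas markers was 136851 in control mouse 1, 17753 and 63798 in the other controls, and 2074, 35014 and 2295 in garlic-fed mice 1, 2 and 3. The mouse of most pancreas signal in each group was then left out, control mouse 1 and garlic-fed mouse 2, which left 2 mice against 2. Of the listed genes 0 of 8 were called, beside 20 of all 12257 genes tested, so that a call among 8 genes was unlikely from the start. The median of the list was -0.14, beside -0.027 over all genes. In that comparison the log2 fold changes were -0.12 for Pf4, -0.14 for Ppbp, -0.075 for Vwf and 0.0058 for Treml1. Garlic-fed mice 1 and 2 stood apart by fat tissue markers, whose summed signal was 20095 and 20952 there and 9028 to 11349 in the other 4 mice, and the part of fat tissue in the values of the listed genes was not tested. The labelled organ was checked with markers of spleen cells, such as Cd79a and Spic, and the summed signal of the 6 measured ran from 39802 to 44190 over the mice.

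The 5 other genes most like the mean profile of the list over the 6 mice were Cyba, Osbpl2, Nit1, Adam33 and Pigx, with Pearson r from 0.977 to 0.991 and Spearman rho from 0.886 to 1. These values were picked as the highest of all genes tested and describe only this set of mice, whose arrays share their scaling. Garlic minus control, these genes ranged from -0.038 to -0.0022 in log2 fold change. Among 65 further genes of platelets and megakaryocytes, r with the same profile was above 0 for 49 and below 0 for 16, with a median of 0.348. It ran from -0.702 for Syk, the gene of a tyrosine kinase of collagen receptor signalling, to 0.946 for Angpt1, which encodes angiopoietin-1. Many genes of the array had a positive r as well. An r of 0.00877, that of Gfi1b, was higher than that of only 46.4% of the other genes tested, and 0.348, that of Mef2c, higher than that of 75.4%.

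Further genes of the lineage were taken from 7 lists of platelet receptors, signalling, granules, enzymes, cytoskeleton, thrombopoietin signalling and transcription factors. They were 71 genes, of which 65 were tested. Past the adjusted threshold 2 were higher and 0 were lower in garlic-fed mice, both of them transcription factor genes, and the median log2 fold change was -0.017. Over all 12262 genes, 42 (0.343%) were higher and 1 (0.00816%) was lower past that threshold, so calls on the whole array lay almost entirely on the higher side. Leaving out the transcription factors, 53 genes were tested, 0 were called, and the median was -0.024. At an unadjusted p under 0.05, 3 of these 53 were lower and 0 higher, beside 6.24% lower and 6.89% higher among all genes. By the naming rule, the genes given for lists without a call are those with the smallest unadjusted p, up to 3 in each. Some genes of these lists were far brighter than Ppbp, the brightest listed gene, with a control mean of 5390. Rap1b, for example, had a control mean of 14232 and Srgn of 16508. The part of other spleen cells in the signals of the 7 lists was not tested, so their medians are values of the whole organ.

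Surface receptors had a median of 0.0092 over 16 genes. Clec1b, the receptor for podoplanin, was at a log2 fold change of -0.28 (adjusted p = 0.483 from limma), P2ry12, an ADP receptor, -0.35, and Cd226, an adhesion receptor, -0.76. The groups overlapped in all of them, and the value of Cd226 rested on garlic-fed mouse 2, at 24.3 where the other 5 mice had 71.9 to 100.1. Signalling genes had a median of -0.026 over 10 genes. Of these, Gnaq, the G protein subunit behind the thrombin and thromboxane receptors, stood at -0.26 and Fermt3, which encodes the integrin activator kindlin-3, at -0.11, with adjusted p of 0.485 and 0.685 from limma.

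Granule and secreted proteins had a median of 0.0059 over 17 genes, with 2 of them lower at an unadjusted p under 0.05, beside 6.24% of all genes. With so few genes these 2 are given as values and not as a result about granules. Plek, which encodes the protein kinase C substrate pleckstrin, had signals of 5918, 5427 and 5045 in the 3 controls, against 4734, 4461 and 4204 in garlic-fed mice. All garlic-fed mice were below all controls, by a log2 fold change of -0.29 (unadjusted p = 0.00876, adjusted p = 0.249 from limma). F13a1, the A chain of coagulation factor XIII, was at -0.45 with overlapping groups (unadjusted p = 0.0245, adjusted p = 0.363 from limma), and Clu, which encodes clusterin, stood at -0.15. Both Plek and F13a1 are also expressed by macrophages and monocytes.

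The smaller lists had no call. Of the eicosanoid enzymes, Tbxas1, thromboxane synthase, stood at 0.35 and Alox12, platelet 12-lipoxygenase, at -0.30, with adjusted p of 0.501 and 0.601 from limma. The 6 cytoskeleton genes had a median of -0.11, with Mylk, the myosin light chain kinase gene, at -0.13, Mpp1, a membrane scaffold gene, at 0.18 and Myh9, the nonmuscle myosin heavy chain gene, at -0.10. Mpp1 is a protein of the RBC membrane too, and garlic-fed mouse 3 had 5278 where the other 5 mice had 3287 to 3917. Another probe set of Mpp1, far dimmer with a control mean of 115, was at -0.092 with overlapping groups. For thrombopoietin signalling, Jak2, a kinase of cytokine signalling, stood at -0.017, and Sh2b3, which encodes the adaptor that restrains the pathway, at -0.37 (unadjusted p = 0.0163, adjusted p = 0.309 from limma). Another probe set of Sh2b3 was at -0.085 with overlapping groups (unadjusted p = 0.638 from limma).

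**Figure D2:**
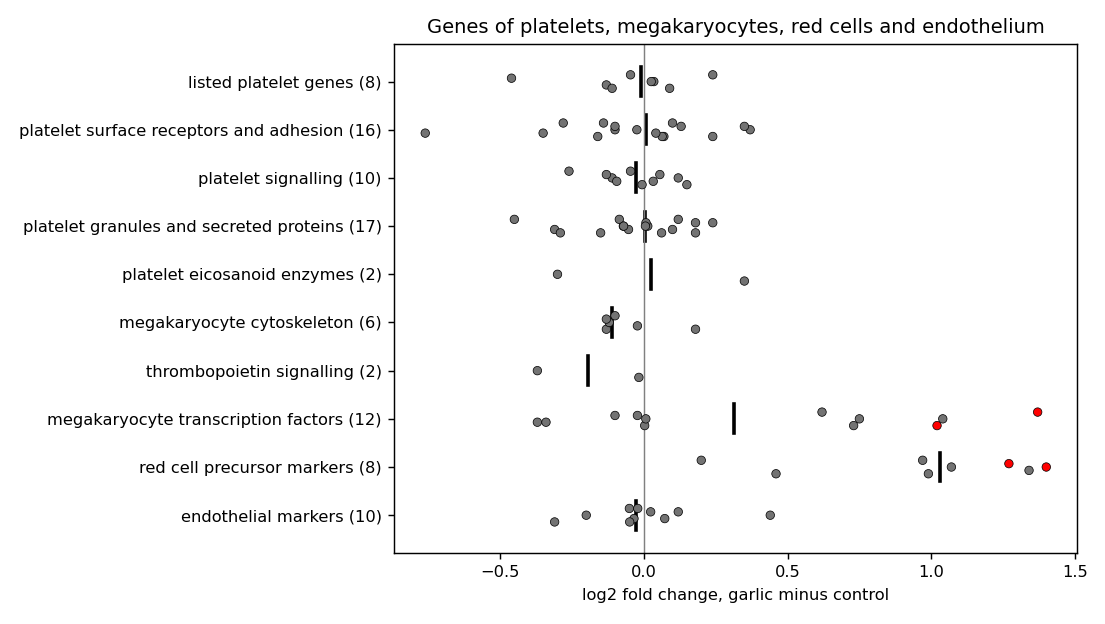
Log2 fold change, garlic minus control, of each tested gene (x axis) in the lists named on the y axis, with the number tested in parentheses, a black line at the list median and red points at an adjusted p under 0.05 from limma. The receptor, signalling, granule and eicosanoid lists have medians between -0.026 and 0.029. The cytoskeleton list has a median of -0.11 and the thrombopoietin signalling list, with 2 genes, one of -0.19. The transcription factor list has a median of 0.31 with 2 genes called, and red cell precursor markers have a median of 1.03 with 2 called.

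Of 12 transcription factor genes known in megakaryocytes, 2 rose in garlic-fed mice and 0 fell, beside 0.343% higher and 0.00816% lower among all genes, and the median log2 fold change was 0.31. Nfe2, the p45 subunit of NF-E2, which drives platelet formation and globin expression, had signals of 884.9, 1326 and 1713 in the 3 controls, against 2876, 3176 and 3781 in garlic-fed mice. Each garlic-fed mouse was above each control, and Nfe2 rose by 1.37 in log2 units, with a standard error of 0.21 and an adjusted p of 0.0375 from limma. Gfi1b, a repressor needed for both megakaryocytes and red cells, had signals of 362.7, 512.8 and 458.4 in the 3 controls, against 827.4, 821.6 and 1037 in garlic-fed mice. Gfi1b rose by 1.02 (standard error 0.16, adjusted p = 0.0427 from limma), again with no overlap. Both calls were lost, with nearly the same fold changes, under a constant variance (adjusted p = 0.273 for Nfe2 and 0.265 for Gfi1b from limma). Without single mice the adjusted p ran from 0.028 to 0.15 for Nfe2, which stayed past the threshold without control mouse 3 or garlic-fed mouse 1, and from 0.0559 to 0.174 for Gfi1b, which passed in none.

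Other genes of this list, named after their values were seen, had an unadjusted p under 0.05 without passing the adjusted threshold. Of all 12 genes, with Nfe2 and Gfi1b, 6 were higher and 2 lower at that level by their brightest probe sets, beside 6.89% and 6.24% of all genes tested. The groups did not overlap in 19.8% of all genes. Tal1, which encodes a factor of early blood cells and both lineages, had signals of 1514, 2387 and 2461 in the 3 controls, against 3615, 4203 and 5046 in garlic-fed mice (log2 fold change 1.04, adjusted p = 0.0673 from limma). Gata1 had signals of 658.7, 660.1 and 888.5 in the 3 controls, against 972.1, 1216 and 1501 in garlic-fed mice (log2 fold change 0.73, adjusted p = 0.143 from limma). In both, each garlic-fed mouse was above each control. Zfpm1, which encodes the Gata1 cofactor FOG-1, had a log2 fold change of 0.75 and Mafg, which encodes the small Maf partner of p45, one of 0.62, with no overlap between groups. With the other sign, Fli1, an ETS factor of megakaryocytes, B cells and endothelium, stood at -0.37 and Mef2c, a factor of megakaryocytes and B cells, at -0.34. By their brightest probe sets both were lower in every garlic-fed mouse than in any control, with adjusted p of 0.331 and 0.258 from limma. Another probe set of Fli1, at -0.23, and another of Mef2c, at -0.26, had overlapping groups. The remaining probe sets of Mef2c, at -0.38, -0.25 and -0.52, were lower without overlap. The remaining Runx1, Meis1, Etv6 and Rbm15 lay between -0.10 and 0.0072 by their brightest probe sets. Another probe set of Meis1, with a control mean of 192 beside 184 for the brightest, was at -0.66. Its groups did not overlap (unadjusted p = 0.00897, adjusted p = 0.252 from limma), so the probe sets of Meis1 differed.

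**Figure D3:**
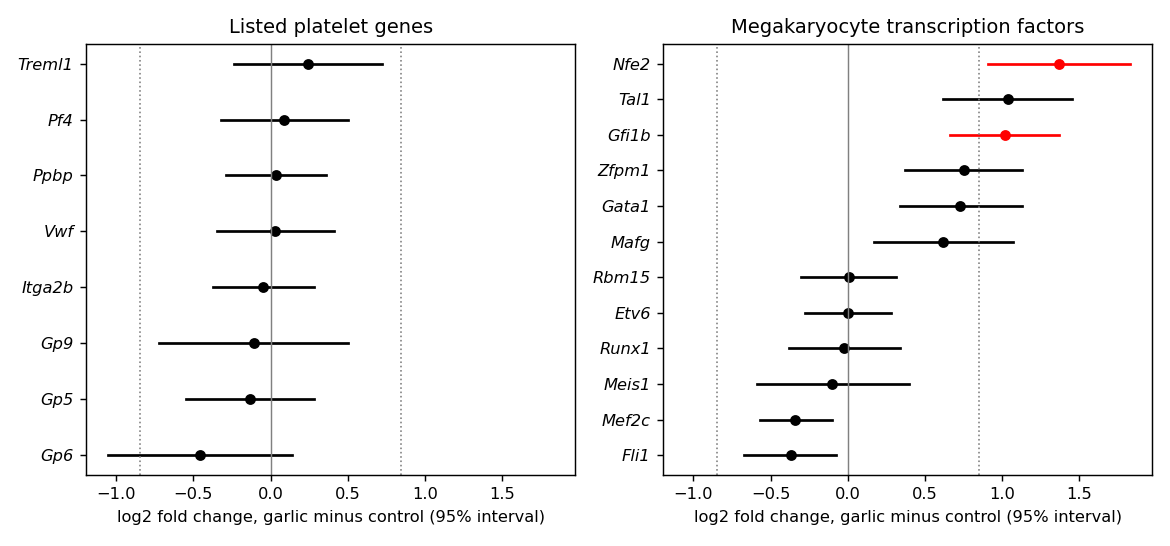
Log2 fold change, garlic minus control (x axis), with its 95% interval for the 8 listed genes on the left and the 12 transcription factor genes on the right, dotted lines at a fold change of 1.8 in either direction and red marking an adjusted p under 0.05 from limma. All 8 intervals on the left cross 0, and on the right Nfe2 at 1.37 and Gfi1b at 1.02 are called.

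Red cell precursor markers were also measured. Of 8 tested, 2 rose past the adjusted threshold, Kel and Ermap, beside 0.343% of all genes, and 7 had a positive difference with an unadjusted p under 0.05, beside 6.89%. The median log2 fold change was 1.03. Slc4a1, the gene of the RBC anion exchanger, differed between its probe sets, with its brightest at 0.46 (adjusted p = 0.107 from limma) and another at 0.72 (adjusted p = 0.0255 from limma). The summed signal of the 8 markers was between 34988 and 44227 in the controls and between 53934 and 77131 under garlic, without overlap. The summed signal of the 8 megakaryocyte and platelet genes was between 8896 and 13252 in the controls and between 10699 and 13115 under garlic, inside the range of the controls. Garlic-fed mouse 3 had the highest red cell precursor median of the 6, 1.48 above the control mean, and with -0.22 the lowest median of the megakaryocyte and platelet genes in its group. The part of red cell precursors in the signals of the shared transcription factors was not tested.

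**Figure D4:**
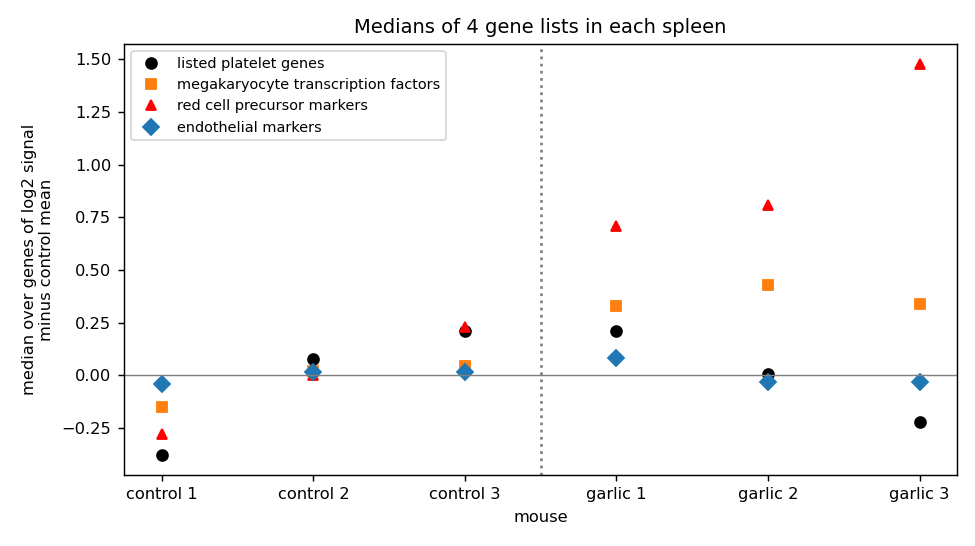
Median over the genes of a list of the log2 signal minus the mean of the 3 control mice (y axis) in each of the 6 mice (x axis). The red cell precursor markers lie between 0.71 and 1.48 in garlic-fed mice, above every control mouse, while the listed platelet genes lie between -0.22 and 0.21 in garlic-fed and between -0.38 and 0.21 in control mice.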

How the data were processed

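Spleen RNA of 3 control and 3 garlic-fed mice was measured on 1 Affymetrix array each. The deposited values are intensity values on a linear scale, made by the authors with MAS5 as the submitters' processing notes name it; its version is not given in the sources used here. Each array had a trimmed mean of 500 once 2% of its probe sets were dropped at either end, as read from the values. Median signals of the arrays were 119.7 to 132.2, and the number of arrays limits the precision.

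After 64 control probe sets were left out, 45037 remained, 34945 of them with 1 gene name in the array annotation, whose symbols can be old. Signals were floored at 23.5, their 20th percentile, before log2 was taken. Only probe sets whose mean log2 value exceeded 6.08, the 40th percentile, entered the test, 27022 in number. Linear models were fitted in limma 3.58.1 under R 4.3.3, with eBayes moderation following the trend of variance with signal, and p-values were adjusted by the Benjamini-Hochberg method. The brightest probe set stood for a gene that had several. Whether the labels' biological replicates shared a cage is not given in the sources used here.

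The members and lists were chosen with earlier results of these data known. Named are all listed genes, of each further list every gene past the adjusted threshold or else up to 3 with the smallest unadjusted p, and the 5 genes most like the list. Gp1ba and, of the further lists, Mpig6b, Serpine2, Ptgs1 and Thpo lacked a named probe set and were not analysed here. The marker lists for mast cells and basophils (2 of 8 tested, 0 called), early progenitors (7 tested, 0 called) and fat tissue (5 tested, 0 called, 1 higher at an unadjusted p under 0.05) were run as well, with medians of 0.26, -0.21 and 0.67. Alternatives were quantile normalization, median centring, other floors and filters, no trend of variance, the methods' ANOVA, a block on replicate number, omitting single arrays, averaging the probe sets of a gene and, chosen after seeing the data, leaving out the array of most pancreas signal in each group. The procedure was tested on simulated data. Figures were drawn with matplotlib 3.10.9.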

Additional observations from a re-analysis of the deposited data

How the results depend on the processing

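None of the 8 listed genes passed the adjusted threshold under any alternative run, and without control mouse 3 alone 1 of them, Treml1, had an unadjusted p under 0.05 (0.0192 from limma). Some of these runs called hardly any gene of the array. Of all genes, 0 were called with no trend of variance, with the methods' ANOVA, and without control mouse 1 or control mouse 2. Without a filter, 3 were called. For the 8 listed genes the missing calls in these runs are therefore no check. The median of the 8 genes lay between -0.14 and 0.075 when single arrays were left out, was 0.068 with each array centred on its median, where that of all genes was 0.05, and 0.026 with the filter at the 60th percentile, which left 7 of the genes. With the replicate number as a block it was -0.0098 and 0 of 8 were called, while the genes called in all rose from 43 to 193. Nothing in the sources used here says that a number marks a shared cage or day. Deviations of same-numbered mice correlated at 0.000642, -0.176 and 0.0781, and 2 of 6 arrays correlated best with their own number.

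Signs of small differences depended on the setting, and the cause was not tested. With each array centred on its median, Itga2b was at 0.032, Jak2 at 0.061 and Gp1bb at 0.054. Without the array of most pancreas signal in each group, Pf4 was at -0.12, Ppbp at -0.14, Vwf at -0.075, Jak2 at 0.03 and Itgb3 at -0.17. Leaving out single arrays gave -0.13 to 0.26 for Pf4, -0.16 to 0.15 for Ppbp, -0.13 to 0.069 for Itga2b, -0.37 to 0.15 for Gp9, -0.11 to 0.22 for Vwf, -0.091 to 0.32 for Itgb3, -0.26 to 0.2 for Gp1bb, -0.05 to 0.012 for Jak2 and -0.0085 to 0.31 for Mpp1.

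Nfe2 and Gfi1b kept their direction throughout, with log2 fold changes of 1.11 to 1.59 and 0.88 to 1.13. Their calls were also lost without a filter (adjusted p = 0.337 and 0.304 from limma), with the methods' ANOVA (0.43 and 0.399 after adjustment) and without the arrays of most pancreas signal (0.0803 and 0.209 from limma). Tal1 was called with median centring (0.0392), with the floor at the 40th percentile (0.0495) and with the block (0.0027). Gata1 and Zfpm1 were called with the block (0.0208 and 0.00862). The number of genes called among all fell to 3 without a filter and to 0 with no trend, with the methods' ANOVA, without control mouse 1 and without control mouse 2.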
